A study of Mus musculus with 32 samples.

Results

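High-dose disulfiram (DSF) on a high-fat diet (HFD) was examined in the liver as HFDH against HFD, with 4 HFDH mice set against 5 HFD mice out of the 30 mice of the series. The series measured liver RNA of male C57BL/6J mice, each on an Illumina BeadChip array, in 6 groups of HFD or standard diet (SD) with no DSF, a low dose or a high dose. HFDH mice ate HFD, with 61% of its energy from fat, carrying DSF at 200 mg/kg/day, listed as 2.67 g/kg of food. HFD mice ate the same diet without the drug, and HFDL mice ate it with 100 mg/kg/day, listed as 2.33 g/kg of food. SDH, SDL and SD mice ate a diet with 17% of its energy from fat. SDH mice received 200 mg/kg/day of DSF, listed as 2 g/kg of food. SDL mice received 100 mg/kg/day, listed as 1 g/kg of food, and SD mice none. The listed food content of the high dose thus differed between the diets. All groups shared strain, sex and timing. By the sample labels the diets began at 16 weeks of age and lasted 40 weeks, to an age of 56 weeks, and other descriptions of the study differ from these ages and times by 1 or more weeks. The mice were chosen by their array columns, and the array of the fifth HFDH mouse, mouse 16, was set aside because under 35% of its probes were detected. These are whole pieces of tissue, so fewer cells of a type and less RNA per cell cannot be told apart.

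DSF is an alcohol-aversion drug that inhibits aldehyde dehydrogenases. In the mouse liver, many drugs and other foreign compounds switch on cytochrome P450 genes through the nuclear receptors CAR and PXR, and Cyp2b10 is the usual reporter of CAR. Long feeding with fat fills hepatocytes with lipid droplets, and the nuclear receptor PPAR-gamma, low in lean liver, then drives genes that coat, enlarge and fill those droplets. Many liver genes also differ between male and female mice because growth hormone reaches the liver in pulses in males and more evenly in females.

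The arrays detected 43.8% to 45.03% of probes in HFDH mice and 45.3% to 48.8% in HFD mice, and the lowest detected intensity was 76 to 80 in HFDH and 63 to 73 in HFD. The groups did not overlap in either measure, and their part in the results was not tested. Mice of 1 group correlated with a median r of 0.985 to 0.990 in HFDH and 0.989 to 0.993 in HFD. HFD mouse 2 had a repeat array, which was averaged with its first (r = 0.996). Across the 6 groups 3 arrays detected under 35% of probes, and the 27 mice left gave the estimate of the spread. Hepatocyte markers summed to a log2 level of 9.61 to 10.1 in HFDH and 9.36 to 9.79 in HFD, although Fgb and Tat, which hepatocytes make, were not detected by their probes in any of the 9 mice. Summed levels of the Kupffer cell markers were 4.69 to 5.67 in HFDH and 4.51 to 6.17 in HFD, those of the stellate cell markers 6.24 to 6.83 and 6.21 to 6.79, and those of the pancreatic acinar markers 3.14 to 3.43 and 3.02 to 3.48, in the same order of groups. The adipocyte list summed to 5.66 to 7.04 in HFDH and 7.27 to 7.53 in HFD, with its defining genes Plin1 and Retn undetected in all 9 mice and Adipoq detected in 1 mouse of each group.

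Levels are log2 intensities relative to the mean over all probes of the array, scaled to a common standard deviation, so a difference of 1 is a doubling. A gene was called when limma's adjusted p, corrected over all 9972 genes tested, was under 0.05. On this scale HFDH and HFD differed in 437 genes (4.38%), of which 144 were higher (1.44%) and 293 lower (2.94%) in HFDH. The levels of the groups did not overlap for 102 of the genes that rose and for 234 of those that fell, against 9.27% of all genes tested (3.81% with HFDH higher, 5.46% with HFDH lower). Changes of at least 2-fold were found in 13 genes that rose and 38 that fell. The median log2 difference of all genes was -0.01. Of the genes that fell, 14 were undetected in every HFDH mouse, so that their level in HFDH is a bound set by the background.

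**Figure D1:**
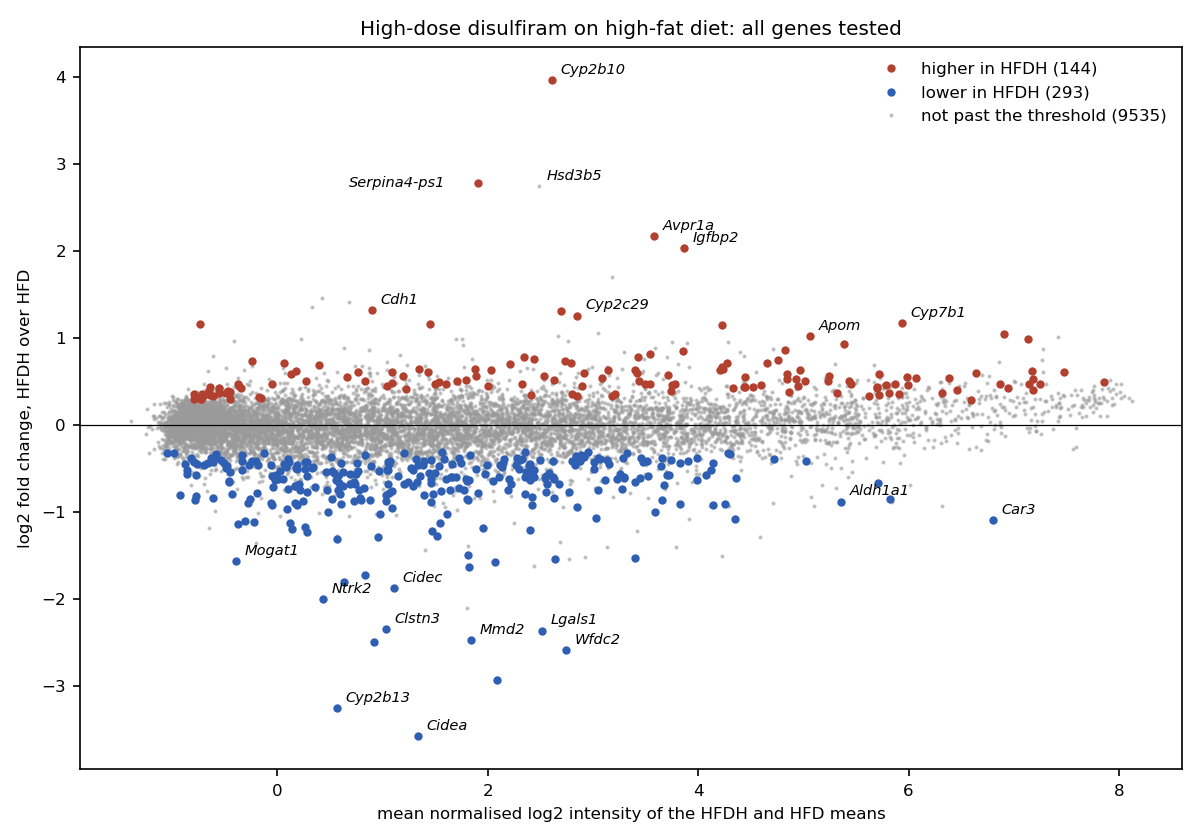
Log2 fold change of HFDH over HFD (vertical axis) against the mean normalised log2 intensity of the HFDH and HFD group means (horizontal axis) for 9972 genes. The 144 genes called higher are red, the 293 called lower are blue, and the furthest points are Cyp2b10 at 3.97 and Cidea at -3.58.

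The largest rise was in Cyp2b10, the cytochrome P450 most readily switched on by CAR. Its level (probe ILMN_2594926) was 3.63, 4.49, 5.51 and 4.74 in HFDH mice, against 0.83, 0.35, 0.46, 0.89 and 0.61 in HFD mice. Every HFDH mouse lay more than 2 log2 units above every HFD mouse. The difference was 3.97 ± 0.54 (SE), or 15.6-fold (limma, adjusted p = 9.6e-05). A second, dimmer probe of Cyp2b10, detected in no HFD mouse, differed by 0.87. The gene's close relative Cyp2b13, which female mice express more than males, did the opposite. Cyp2b13 stood at -0.95, -1.0, -1.42 and -0.90 in HFDH mice, against 3.66, 1.67, 3.54, 2.35 and -0.25 in HFD mice. It was not detected in any HFDH mouse, while the HFD mice were spread over almost 4 log2 units, with mouse 5B the lowest but still above all HFDH mice. The measured difference was -3.26 ± 0.55, and with undetected signals raised to the lowest detected one the gene was at least 7.60-fold lower in HFDH (adjusted p = 0.000904). Cyp2b9, also female-predominant, had 3.75, 2.80, 2.67 and 4.66 in HFDH mice and 5.51, 4.37, 5.65, 5.59 and 3.76 in HFD mice. The groups overlapped, and its difference of -1.50 ± 0.74 did not pass (adjusted p = 0.254). Cyp2b23, the remaining family member tested, differed by -0.25 ± 0.41 (adjusted p = 0.774).

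The 250 bases before the start site are shown for the 3 genes, since Cyp2b10 rose, Cyp2b13 fell and Cyp2b9 did not pass the test although all lie on chromosome 7. The sequences are RefSeq's for GRCm38.p6, plus strand, 5′ to 3′, at chr7:25897408-25897657 for Cyp2b10, chr7:26061245-26061494 for Cyp2b13 and chr7:26173159-26173408 for Cyp2b9. Capitals mark AGGTCA, the half-site bound by many nuclear receptors, searched on both strands.
Cyp2b10: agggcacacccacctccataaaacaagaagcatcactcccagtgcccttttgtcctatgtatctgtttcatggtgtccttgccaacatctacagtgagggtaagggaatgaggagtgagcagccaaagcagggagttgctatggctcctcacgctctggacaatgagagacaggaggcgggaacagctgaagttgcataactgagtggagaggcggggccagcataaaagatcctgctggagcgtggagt
Cyp2b13: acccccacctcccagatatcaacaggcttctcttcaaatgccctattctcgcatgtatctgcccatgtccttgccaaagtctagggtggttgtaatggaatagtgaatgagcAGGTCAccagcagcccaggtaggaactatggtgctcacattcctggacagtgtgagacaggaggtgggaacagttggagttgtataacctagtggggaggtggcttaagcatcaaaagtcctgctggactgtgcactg
Cyp2b9: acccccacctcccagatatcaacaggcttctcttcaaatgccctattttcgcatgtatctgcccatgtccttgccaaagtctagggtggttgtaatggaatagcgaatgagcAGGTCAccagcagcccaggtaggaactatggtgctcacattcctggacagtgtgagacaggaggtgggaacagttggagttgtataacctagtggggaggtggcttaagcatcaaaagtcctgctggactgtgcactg
The Cyp2b13 and Cyp2b9 windows were identical at 248 of 250 positions (99.2%). AGGTCA occurred once in each of the Cyp2b13 and Cyp2b9 windows, at position -138, and not in the Cyp2b10 window, and 14.0% of 32851 mouse promoter windows hold it. The STAT5 motif TTCNNNGAA, present in 7.0% of the windows on either strand, was in none of these. Sites outside the 250 bases were not searched, so the windows do not show which of the 3 genes a nuclear receptor binds. RNAs of such close copies may bind each other's probes on an array, and the probe sequences were not used here, so the separation of Cyp2b13 from Cyp2b9 is uncertain.

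**Figure D2:**
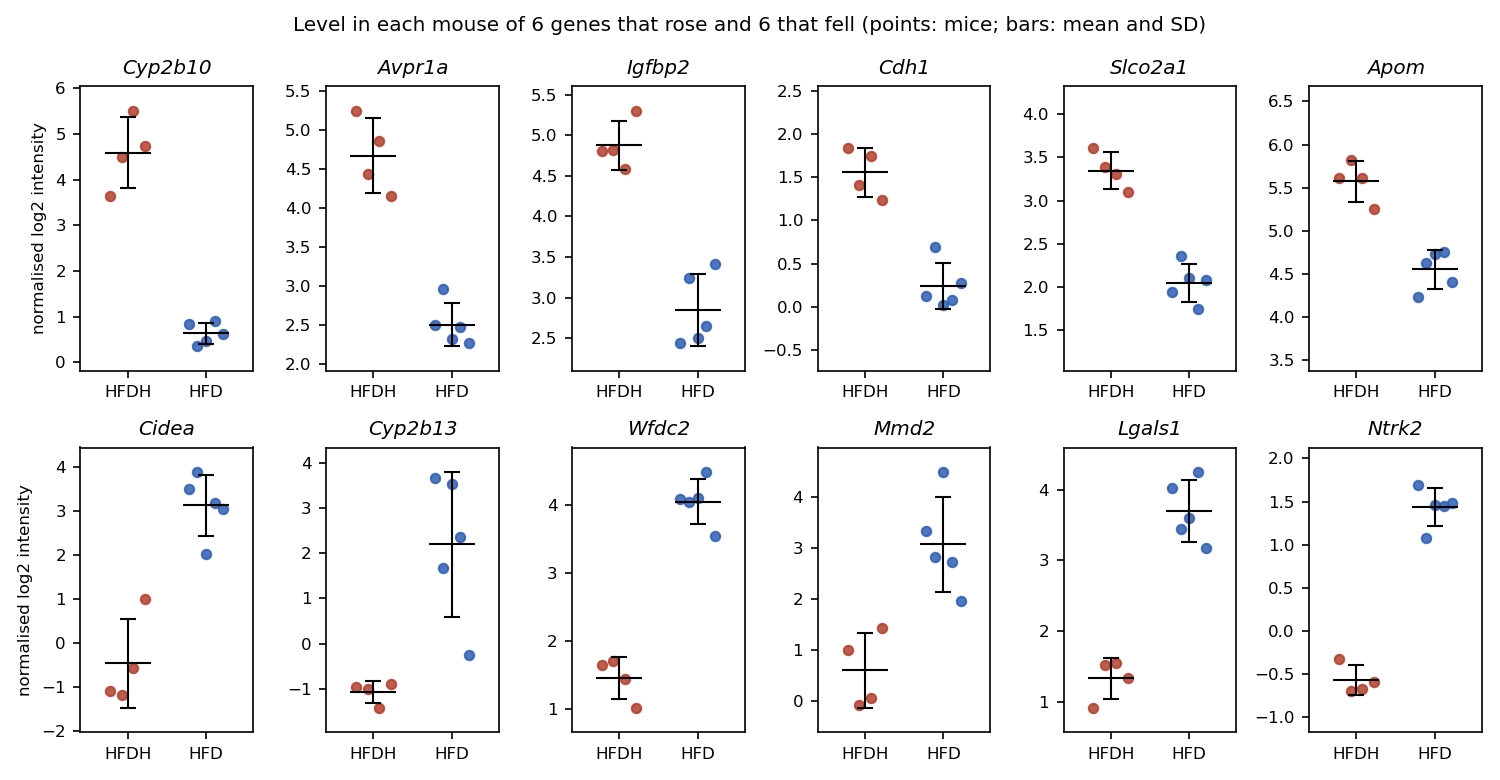
Normalised log2 intensity (vertical axes) of 6 genes that rose and 6 that fell, with a point for each of 4 HFDH mice (red) and 5 HFD mice (blue) and bars for the mean and SD. In all 12 genes the groups do not overlap, and the HFD mice are most widely spread for Cyp2b13, from -0.25 to 3.66.

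Of 25 genes on the list of CAR and PXR targets, 2 rose (8%, against 1.44% of all genes) and 2 fell (8%, against 2.94%), with a median difference of 0.08. The rises were Cyp2b10 and Cyp2c29, and the falls Aldh1a1 and Aldh1a7. Cyp2c29, a CAR-inducible P450 that metabolises drugs and fatty acids, was at 3.35, 3.46, 3.79 and 3.32 in HFDH mice, against 2.43, 2.19, 2.49, 1.99 and 2.01 in HFD mice. The groups were apart, with a rise of 1.25 (adjusted p = 0.0398), a call lost without any 1 of HFDH mice 13, 14 and 15 or HFD mice 1, 2, 4 and 5B. Among 8 Cyp2c genes, Cyp2c70, which makes the muricholic bile acids of mice, rose by 0.61 as well (adjusted p = 0.0275). Cyp1a2, a P450 of the cells around the central vein, rose by 0.93 (adjusted p = 0.0264). Both lost the call without HFDH mouse 13 or 15 or HFD mouse 1 or 4, Cyp2c70 also without HFD mouse 5B and Cyp1a2 also without HFDH mouse 14. None of the 15 Cyp3a and Cyp4 genes or the 10 carboxylesterases passed limma's adjusted test, and 3 and 5 of them had an unadjusted p under 0.05. The conjugating enzymes split. Of 21 glutathione S-transferases 3 rose (14.3%, against 1.44% of all genes), among them Gstm1 by 0.59 (adjusted p = 0.0411, lost in 13 of 41 alternatives). Of 15 UGT and sulfotransferase genes 1 fell (6.67%, against 2.94% of all genes), the sulfotransferase Sult1c2 by 1.31 (adjusted p = 0.00173). Gstp1 differed by 0.99 (adjusted p = 0.0481), but with overlapping groups, a near-identical neighbour gene, and a value of -0.60 once mouse 16 was added. These counts depended on scaling: after quantile normalisation no Cyp2c gene passed limma's adjusted test (4 had an unadjusted p under 0.05), and of the glutathione S-transferases 1 rose and 1 fell after quantile normalisation and 3 fell when arrays were centred but not scaled.

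The aldehyde dehydrogenases, the enzyme family that DSF inhibits as proteins, were lower as transcripts where they passed the test. Of 14 tested, 3 fell (21.4%, against 2.94% of all genes) and none rose, and 4 had a difference above 0. Aldh1a1, the cytosolic enzyme that oxidises retinaldehyde, measured 4.61, 4.97, 4.79 and 5.30 in HFDH mice, against 6.33, 5.58, 5.61, 5.94 and 5.55 in HFD mice. No HFDH mouse reached an HFD mouse, and the gene fell by 0.88 (adjusted p = 0.0301), a call lost without HFDH mouse 13, 14 or 15 or HFD mouse 1 or 4. Its close relative Aldh1a7 gave 3.76, 3.35, 3.78 and 3.85 in HFDH mice, against 5.20, 4.47, 4.40, 4.60 and 4.34 in HFD mice. The groups were again apart, with a fall of 0.92 (adjusted p = 0.0115). Aldh3a2, which oxidises fatty aldehydes, fell by 0.86 (adjusted p = 0.0323), a call lost without HFDH mouse 13 or 15 or HFD mouse 1, 4 or 5B. With mouse 16 added, none of the 14 genes passed limma's adjusted test, and 3 had an unadjusted p under 0.05. Nfe2l2, which encodes the oxidative stress regulator NRF2, fell by 0.68 (adjusted p = 0.000834). Of 24 genes on the NRF2 list 1 rose (Gstm1, 4.17%, against 1.44% of all genes). Another 1 fell (Nfe2l2 itself, 4.17%, near the 2.94% of all genes).

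Among genes of lipid droplets and of the PPAR-gamma program, those that passed the test were lower in HFDH. Of 19 genes of the PPAR-gamma list, 8 fell and none rose (42.1% lower, against 2.94% of all genes), with a median difference of -1.08 against -0.01 over all genes. Cidea, which encodes a protein that fuses and enlarges lipid droplets, was at -1.09, -1.17, -0.57 and 1.01 in HFDH mice, against 3.50, 3.88, 2.02, 3.17 and 3.05 in HFD mice. HFDH mouse 17 was the highest of its group and still 1 log2 unit under the lowest HFD mouse, and 2 of the 4 HFDH mice had undetected signals. The fall was 3.58 ± 0.56, the largest measured in any gene (adjusted p = 0.000489). Cidec, a relative with the same role, was at 0.30, -0.11, 0.62 and -0.13 in HFDH mice, against 2.43, 1.72, 1.67, 2.54 and 1.88 in HFD mice. The groups were separated by about 1 log2 unit, and the difference was -1.88 ± 0.46 (adjusted p = 0.0178), a call lost without HFDH mouse 13 or 14 or HFD mouse 1 or 4. Pparg itself, the receptor, read 0.29, 0.85, 1.25 and 1.07 in HFDH mice, against 2.19, 1.71, 1.58, 2.59 and 2.34 in HFD mice. It fell by 1.22 without overlap (adjusted p = 0.0038). Mogat1, which joins a fatty acid to monoacylglycerol and is a PPAR-gamma target in fatty liver, was undetected in all HFDH mice at -1.24, -1.17, -1.08 and -1.21, against 1.09, 0.15, 0.51, 0.55 and -0.32 in HFD mice. It was at least 2.18-fold lower in HFDH, with a measured difference of -1.57 (adjusted p = 0.000108).

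Other members of those lists moved the same way or did not pass. On the list of 19 lipid droplet genes 5 fell (26.3%, against 2.94% of all genes) and none rose, among them Fitm1, which helps package fat into droplets, by 1.29 (adjusted p = 0.00236) and Pcyt1a, which controls the phosphatidylcholine that coats them, by 0.81 (adjusted p = 0.0268), a call lost after quantile normalisation and without HFDH mouse 13, 15 or 17 or HFD mouse 1, 3 or 4. Vldlr, a receptor that brings lipoprotein fat into the cell, fell by 1.23 (adjusted p = 0.0311), a call lost without HFDH mouse 13, 14 or 15 or HFD mouse 1, 3 or 4. Anxa2, a membrane-binding annexin, fell by 1.53 (adjusted p = 0.00449). The commonest droplet coat protein of liver, Plin2, differed by -0.38 (adjusted p = 0.147), and the lipase Pnpla2 by 0.25 (adjusted p = 0.529). Adipocyte markers, which share genes with this program, moved in 1 case: Car3, a carbonic anhydrase abundant in fat cells and in male liver, was at 5.98, 6.45, 7.02 and 5.58 in HFDH mice, against 7.30, 7.27, 7.51, 7.42 and 7.25 in HFD mice. It fell by 1.09 (adjusted p = 0.036), with no overlap, and lost the call without any 1 of 7 of the 9 mice. The adipocyte genes Plin1 and Retn were undetected in all 9 mice, and Adipoq and Lep differed by 0.30 and -0.01 (adjusted p = 0.813 and 0.973). Leaving out any 1 of the 9 mice left 6 to 8 PPAR-gamma genes and 3 to 5 droplet genes lower. With mouse 16 added 8 PPAR-gamma genes were lower. Cidea, Cidec and Mogat1 were undetected on the array of mouse 16, which detected 27.2% of probes. A low value there is set by the dim array, so this last count is not a check of the falls.

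**Figure D3:**
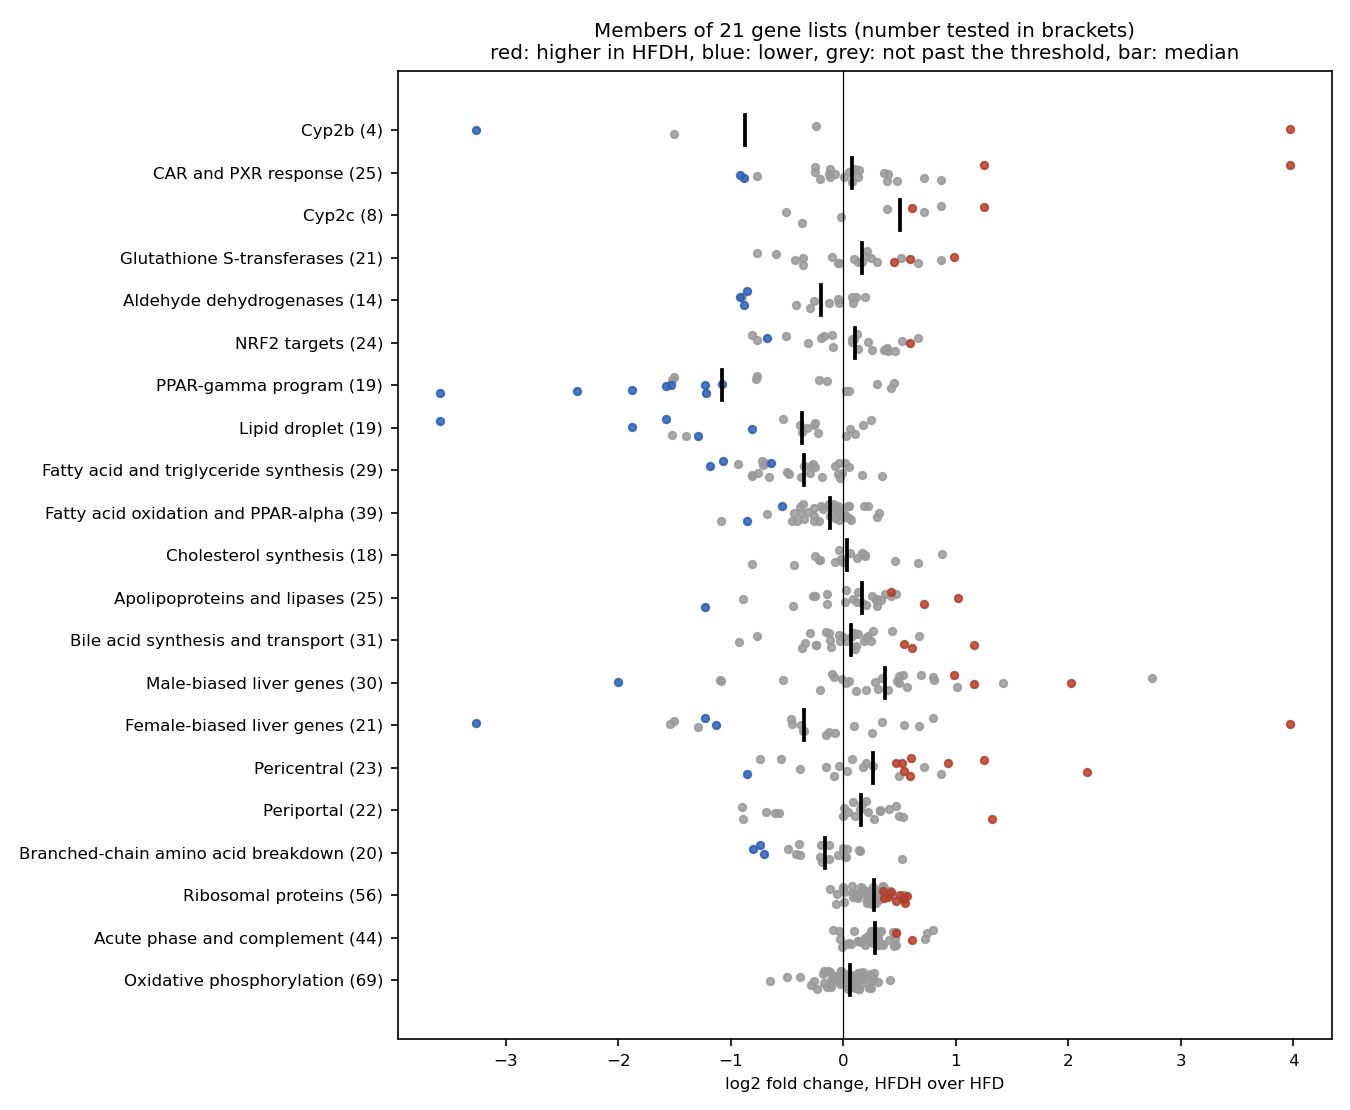
Log2 fold change of HFDH over HFD (horizontal axis) for the tested members of 21 gene lists (rows, with the number tested), red where higher, blue where lower, grey where the test was not passed, with a bar at the median. The PPAR-gamma list has its median at -1.08, the lowest of the rows, and the ribosomal and acute phase lists lie slightly right of 0.

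Of 29 genes of fatty acid and triglyceride synthesis 3 fell (10.3%, against 2.94% of all genes) and none rose. Srebf1, the transcription factor that answers insulin and switches on lipogenesis, fell by 1.19 (adjusted p = 0.023). Its targets Elovl6, which lengthens palmitate, and Acaca, which makes malonyl-CoA, fell by 1.07 (adjusted p = 0.0144) and 0.64 (adjusted p = 0.0291). Of the 29, 4 had a difference above 0 (median -0.35). Without HFDH mouse 13 or 15 none of the 29 passed limma's adjusted test, and 9 and 11 had an unadjusted p under 0.05. Fasn, the fatty acid synthase, differed by -0.48 (adjusted p = 0.25) and Scd1, the desaturase, by -0.03 (adjusted p = 0.928). Of 39 genes for fatty acid oxidation 2 fell (5.13%, near the 2.94% of all genes), the receptor gene Ppara by 0.54 (adjusted p = 0.00819) and Aldh3a2. Acot11, an acyl-CoA thioesterase of thermogenic fat and liver, was at -0.67, -0.34, -0.59 and 0.27 in HFDH mice, against 0.91, 0.83, 0.55, 0.91 and 1.03 in HFD mice. All 4 HFDH mice were below all HFD mice, and it fell by 1.18 (adjusted p = 0.0106), a call lost without HFDH mouse 13. Of its other probes, 1 detected in all 9 mice differed by -0.32 and 1 not detected in HFDH by -0.49, both smaller gaps. No gene of 18 for cholesterol synthesis passed limma's adjusted test, with 3 at an unadjusted p under 0.05 and a median difference of 0.03.

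The next largest rises among detected genes with full separation of the groups were in a hormone receptor and a growth factor carrier. Avpr1a, the vasopressin receptor of hepatocytes, was at 5.24, 4.42, 4.85 and 4.15 in HFDH mice, against 2.50, 2.96, 2.31, 2.47 and 2.26 in HFD mice. The difference of 2.17 ± 0.28 (4.49-fold, adjusted p = 3.73e-05) separated every mouse of the groups. Igfbp2, which encodes a binding protein for insulin-like growth factors, was at 4.81, 4.82, 4.58 and 5.30 in HFDH mice, against 2.44, 3.24, 2.51, 2.65 and 3.41 in HFD mice. It rose by 2.03 ± 0.24 (4.08-fold, adjusted p = 1.38e-05), again with no overlap. Apom, the apolipoprotein that carries sphingosine 1-phosphate on HDL, had 5.61, 5.82, 5.62 and 5.25 in HFDH mice, against 4.23, 4.63, 4.74, 4.76 and 4.41 in HFD mice. It rose by 1.02 (adjusted p = 0.00045), and Scarb1, the HDL receptor, by 0.72 (adjusted p = 0.00353). Cyp7b1, which hydroxylates oxysterols on a route to bile acids, was at 6.48, 6.67, 6.37 and 6.56 in HFDH mice, against 4.57, 5.97, 4.68, 5.02 and 6.52 in HFD mice. HFD mouse 5B lay within the HFDH range, and the rise of 1.17 (adjusted p = 0.0254) was lost without HFDH mouse 13, 14 or 15 or HFD mouse 1, 3 or 4. Of 25 genes of apolipoproteins and lipases 3 rose (12%, against 1.44% of all genes) and 1 fell (4%, near the 2.94% of all genes). Of 31 genes on the bile acid list 3 rose (9.68%, against 1.44% of all genes) and none fell. After quantile normalisation none of the 31 passed limma's adjusted test (12 had an unadjusted p under 0.05), and with centring alone 2 fell.

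The remaining large rises were in genes of varied roles. Cdh1, E-cadherin of hepatocyte junctions, read 1.84, 1.40, 1.75 and 1.24 in HFDH mice, against 0.13, 0.69, 0.02, 0.08 and 0.28 in HFD mice. It rose by 1.32 (adjusted p = 0.000134) with the groups apart. Slco2a1, a prostaglandin transporter, rose by 1.30 (adjusted p = 0.000469), Nrp1, a co-receptor for VEGF and semaphorins, by 1.15 (adjusted p = 0.00492) and Ang, the secreted ribonuclease angiogenin, by 1.04 (adjusted p = 0.00146). Dnaic1, a dynein subunit of cilia, was undetected in all 5 HFD mice and at least 1.60-fold higher in HFDH, with a measured difference of 1.16 (adjusted p = 0.0115). Cobl, an actin nucleator, differed by 1.16 on the brightest of its probes (adjusted p = 0.00813). A dimmer probe differed by 0.07 but was detected in 0 HFDH mice and 1 HFD mouse, so it cannot test this rise. Serpina4-ps1, a pseudogene of the serpin family, was at 3.83, 4.87, 4.39 and 0.09 in HFDH mice, against -0.75, 1.92, -0.34, -0.21 and 1.95 in HFD mice. HFDH mouse 17 was within the HFD range, and the difference of 2.78 ± 0.81 was just past the threshold (adjusted p = 0.0482) and lost the call in 26 of 41 alternatives.

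Among the largest falls, several genes separated the groups by more than 1 log2 unit. Wfdc2, a small secreted protein of epithelia, was at 1.64, 1.70, 1.45 and 1.02 in HFDH mice, against 4.08, 4.03, 4.09, 4.47 and 3.54 in HFD mice. It fell by 2.59 ± 0.28 (adjusted p = 3.25e-06). Ntrk2, the receptor TrkB for brain-derived neurotrophic factor, was at -0.32, -0.70, -0.67 and -0.59 in HFDH mice, against 1.69, 1.08, 1.47, 1.45 and 1.48 in HFD mice. Its fall of 2.00 had the same adjusted p of 3.25e-06, and the groups were more than 1 log2 unit apart. Lgals1, which encodes the sugar-binding protein galectin-1, was at 0.92, 1.53, 1.55 and 1.34 in HFDH mice, against 4.03, 3.45, 3.60, 4.25 and 3.17 in HFD mice. It fell by 2.37 (adjusted p = 5.16e-06), the 1 call among 36 genes of the extracellular matrix list (2.78%, near the 2.94% of all genes called lower). Mmd2, a membrane protein of the progestin and adipoQ receptor family, had 1.00, -0.09, 0.06 and 1.44 in HFDH mice, against 3.34, 2.84, 4.49, 2.73 and 1.97 in HFD mice. It fell by 2.47 (adjusted p = 0.000296), and here the HFD mice ranged over more than 2 log2 units.

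Of 26 genes of cell junctions and guidance 4 fell (15.4%, against 2.94% of all genes), which were Ntrk2, Clstn3, Robo1 and Efna5. Cdh1 was the 1 that rose (3.85%, against 1.44% of all genes). Clstn3, the membrane protein calsyntenin 3, was at -0.97, -0.09, 0.08 and 0.40 in HFDH mice, against 1.92, 2.32, 2.14, 2.27 and 2.39 in HFD mice. This probe fell by 2.35 without overlap (adjusted p = 0.000185), whereas a second probe of the gene differed by -0.29. The second was detected in 1 HFDH mouse and 5 HFD mice, so the background limits its difference. Robo1, the receptor for Slit guidance proteins, fell by 1.73 (adjusted p = 0.00345), Slc17a8, a vesicular glutamate transporter, by 1.64 (adjusted p = 0.00724), and Efna5, an ephrin ligand, by 0.75 (adjusted p = 0.000776). Dct, an enzyme of melanin synthesis, fell by 1.80 (adjusted p = 0.00975), Tceal8 by 1.54 (adjusted p = 0.000489) and Aqp4, a water channel higher in female than male mouse liver, by 1.13 (adjusted p = 0.00114). Of 37 chemokine and inflammation genes 1 was called (2.7%) and of 32 interferon genes 1 (3.12%), both shares near the 2.94% of all genes called lower. These were Cxcl9, a chemokine induced by interferon-gamma, which fell by 1.57 (adjusted p = 0.0279), and Gbp2, an interferon-induced GTPase, which fell by 0.96 (adjusted p = 0.0433). Cxcl9 lost the call without HFDH mouse 13 or 17 or HFD mouse 1, 2 or 4, and Gbp2 in 14 of 41 alternatives. Bhlhe40, a repressor in the circadian clock, fell by 0.91 (adjusted p = 0.0038), the 1 call of 17 clock genes (5.88%, against 2.94% of all genes).

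The sex-biased genes showed how unlike the mice of 1 group could be, in HFD and for some genes also in HFDH. Hsd3b5, a steroid dehydrogenase of male mouse liver, was at 4.03, 4.47, 4.08 and 2.83 in HFDH mice, against -0.97, 3.72, -0.87, -0.56 and 4.22 in HFD mice. HFD mice 2 and 5B were at the HFDH levels while HFD mice 1, 3 and 4 were at least 3 log2 units lower, and the difference of 2.74 ± 1.00 did not pass (adjusted p = 0.12). The same HFD mice, 2 and 5B, were the highest of their group for Cyp7b1 and Serpina4-ps1 and the lowest for Cyp2b13 and Cyp2b9. In HFDH, mouse 17 was at 4.77 for the female-biased Cyp17a1, against 0.8465 to 1.385 in the other HFDH mice. For the male-biased Elovl3 it was at 0.33, against 2.26 to 2.96. For Igfbp2, also male-biased, mouse 17 was instead the highest of HFDH. Of 30 male-biased genes 3 rose (10%, against 1.44% of all genes), which were Igfbp2, Cyp7b1 and Gstp1. Of the 30, 1 fell (Ntrk2, 3.33%, near the 2.94% of all genes), and 22 had a difference above 0 (median 0.37). Of 21 female-biased genes 3 fell (14.3%, against 2.94% of all genes), which were Cyp2b13, Vldlr and Aqp4. Of the 21, 1 rose (4.76%, against 1.44% of all genes), which was Cyp2b10, and 7 had a difference above 0 (median -0.35). Hk2, a hexokinase scarce in normal liver, was at -0.04, 0.03, -0.05 and -0.22 in HFDH mice, against 2.01, 1.20, 1.30, 1.62 and -0.09 in HFD mice. HFD mouse 5B lay within the HFDH range, and the difference was -1.28 ± 0.45 (adjusted p = 0.11).

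**Figure D4:**
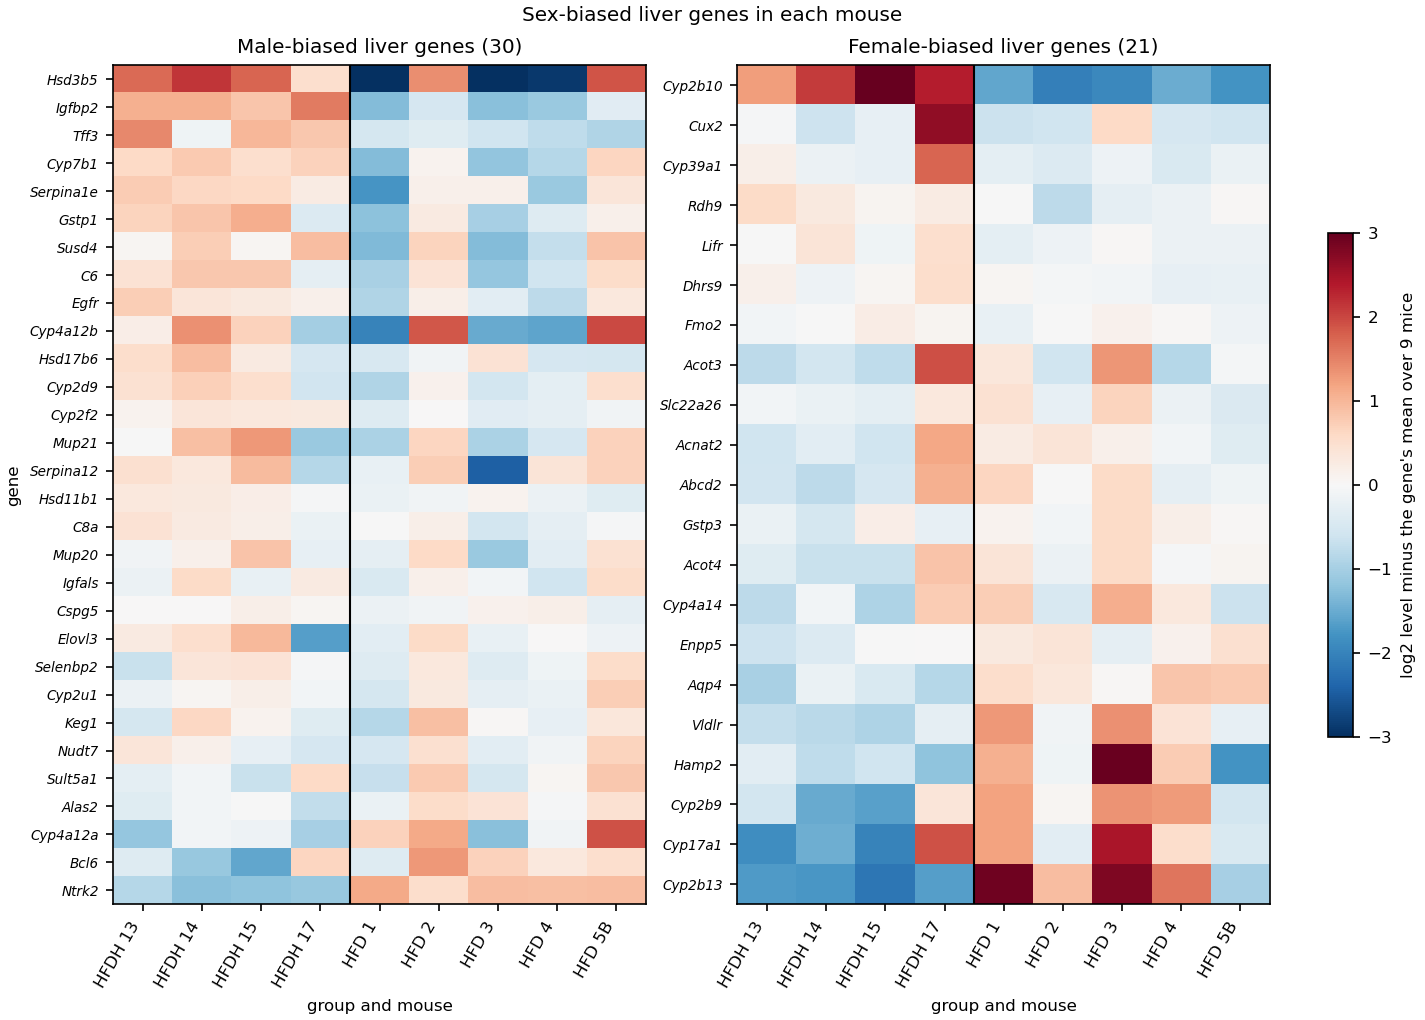
Log2 level of each of 30 male-biased and 21 female-biased genes (rows) in 4 HFDH mice and 5 HFD mice (columns), as the difference from the gene's mean over the 9 mice, with the colour scale ending at 3 either way. The columns of HFD mice 2 and 5B differ from those of HFD mice 1, 3 and 4, for Hsd3b5 at 3.72 and 4.22 against -0.97, -0.87 and -0.56. The column of HFDH mouse 17 differs from the other HFDH mice for some genes, for Cyp17a1 at 4.77 against 0.8465 to 1.385.

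Of 23 genes expressed mainly around the central vein 8 rose (34.8%, against 1.44% of all genes) and 1 fell (Aldh3a2, 4.35%, against 2.94% of all genes). Of 22 genes of the portal side 1 rose (4.55%, against 1.44% of all genes), which was Cdh1. The difference between these lists was not tested. The pericentral genes that rose included Avpr1a, Cyp2c29, Cyp1a2, Gstm1 and Slc16a10, a transporter of aromatic amino acids that rose by 0.60 (adjusted p = 0.0125). After quantile normalisation 3 pericentral genes rose and 1 fell, with centring alone 2 rose and 1 fell, and without single mice 2 to 7 rose. In branched-chain amino acid breakdown 3 of 20 genes fell (15%, against 2.94% of all genes): Dld, a subunit shared by the ketoacid dehydrogenases, by 0.80 (adjusted p = 0.0436), Pcca, a subunit of propionyl-CoA carboxylase, by 0.74 (adjusted p = 0.000989), and Mccc1, a subunit of methylcrotonyl-CoA carboxylase, by 0.70 (adjusted p = 0.0115). Dld lost the call in 17 of 41 alternatives, quantile normalisation among them and any 1 of 7 of the 9 mice left out, and Mccc1 without HFDH mouse 15. Agxt2, a mitochondrial aminotransferase, fell by 0.61 (adjusted p = 0.0046), Treh, which splits trehalose, by 0.91 (adjusted p = 0.00331), and Prkaa2, the catalytic subunit alpha 2 of AMP-activated protein kinase, by 0.63 (adjusted p = 0.0326), the last a call lost in 13 of 41 alternatives. The autophagy gene Atg10 fell by 0.56 (adjusted p = 0.00164), among 37 autophagy genes of which 1 rose and 1 fell (2.7% each, against 1.44% and 2.94% of all genes).

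Ribosomal protein genes and other genes of high intensity lay mostly above 0. Of 56 ribosomal protein genes 10 rose (17.9%, against 1.44% of all genes) and none fell, and 52 had a difference above 0 (median 0.27). Rps10, of the small ribosomal subunit, was at 5.67, 5.72, 5.84 and 4.89 in HFDH mice, against 4.86, 5.03, 4.97, 5.09 and 4.87 in HFD mice, a difference of 0.56 (adjusted p = 0.0179). HFDH mouse 17 lay within the HFD range, and it was also the lowest for Rps27, which differed by 0.54 (adjusted p = 0.0119). Of 44 acute phase and complement genes 2 rose (4.55%, against 1.44% of all genes), and 40 had a difference above 0 (median 0.28). Fgg, the fibrinogen gamma chain, was 1 of those that rose, by 0.62 (adjusted p = 0.0318, lost in 13 of 41 alternatives). Bright genes in general lay above 0: of 279 genes with a level above 6, 231 did (82.8%), against 135 (48.4%) after quantile normalisation and 93 (33.3%) when arrays were centred but not scaled. Ribosomal protein genes that rose numbered 4 after quantile normalisation, none by limma when arrays were only centred or when mouse 16 was added (8 and 18 at an unadjusted p under 0.05), 1 and 2 without HFDH mouse 13 or 15, and 34 without HFDH mouse 17. The part of the brightness trend in the ribosomal and acute phase counts was not tested further. Neither 69 oxidative phosphorylation genes nor 32 genes of the unfolded protein response held a call by limma, with 7 and 5 at an unadjusted p under 0.05.

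At the low dose the same HFD mice served as controls, so the values of the doses are only set side by side. Cyp2b10 averaged 0.63 ± 0.23 (SD) in HFD, 3.89 ± 0.64 in HFDL and 4.59 ± 0.77 in HFDH (n = 5, 4 and 4 mice). Over the same groups Avpr1a averaged 2.50 ± 0.28 in HFD, 4.08 ± 0.37 in HFDL and 4.67 ± 0.48 in HFDH, and Cidea 3.12 ± 0.70 in HFD, -0.36 ± 0.71 in HFDL and -0.46 ± 1.01 in HFDH. HFDL differed from HFD in 46 genes (0.461%), 7 higher (0.0702%) and 39 lower (0.391%). Of the 19 PPAR-gamma genes 5 fell at the low dose, and of the 29 synthesis genes none did. In the direct test of HFDH against HFDL no gene passed limma's adjusted p, and 588 (5.9%) had an unadjusted p under 0.05. The listed food contents, 2.33 g/kg at the low dose and 2.67 g/kg at the high, lie closer together than 100 and 200 mg/kg/day. The size of the dose step is therefore uncertain, and the lack of calls cannot decide a dose effect. The 3 synthesis genes called in HFDH against HFD, picked for that call, differed between the doses by -0.96 (Srebf1, 95% interval -1.61 to -0.32), -0.70 (Acaca, -1.06 to -0.33) and -0.73 (Elovl6, -1.28 to -0.18), and none passed the adjusted test. They were picked for low values in the same HFDH mice, so these intervals do not hold their 95% level and cannot decide a dose effect. Between the doses Fasn differed by -0.12 and Scd1 by -0.29. For Cyp2b10 the interval of HFDH minus HFDL ran from -0.46 to 1.87.

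SDH against SD holds none of the mice of HFDH against HFD. On the standard diet, 705 genes were called (7.07%), 280 higher (2.81%) and 425 lower (4.26%), and 131 calls were shared in the same direction, 39 higher and 92 lower in both. The shared calls were 30.0% of the calls on HFD and 18.6% of those on SD, and 370 of the 437 HFD calls (84.7%) had the same sign on SD. The share of same signs over all genes tested was not counted, so this percentage has no baseline here. The pancreatic acinar markers averaged a level of 5.91 in SDH mouse 17 and 3.15 in SD mouse 2, against at most 0.85 in the other mice of these groups. Without SD mouse 2 and SDH mouse 17, the calls were 540 on HFD and 340 on SD, with 92 shared in direction. Cyp2b10 rose by 3.97 on HFD and 3.96 on SD, although 1 SD mouse, mouse 5, was at 2.98 while the other SD mice were below 0. Cyp2b13 sat at -1.31 ± 0.10 in SDH (SD, n = 4) and -1.06 ± 0.25 in SD (n = 5), while the difference in response between the diets, -3.01, did not pass (adjusted p = 0.12).

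**Figure D5:**
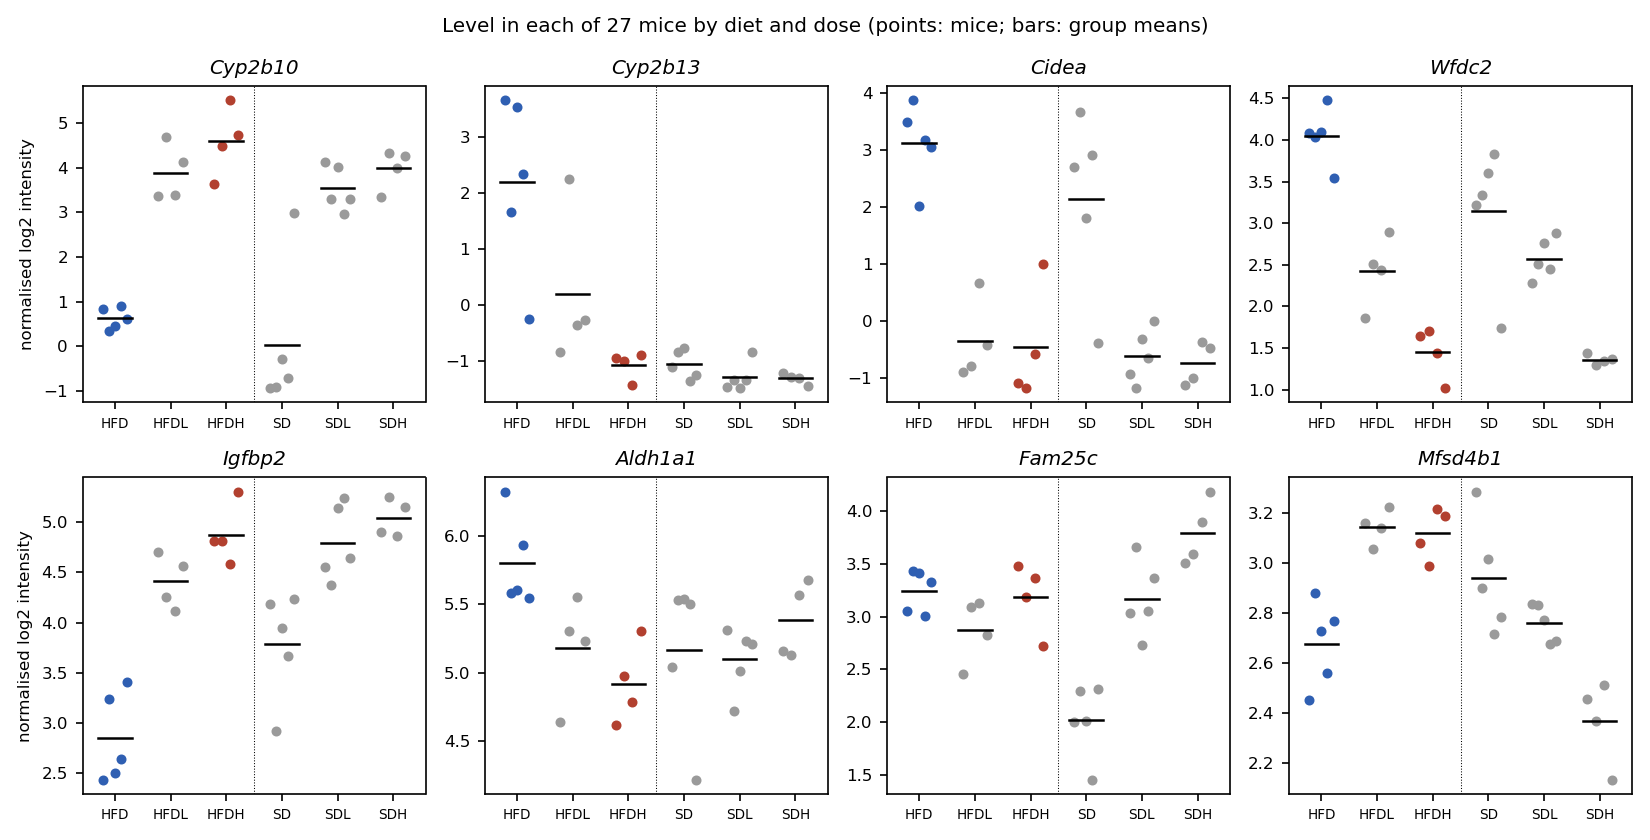
Normalised log2 intensity (vertical axes, each with its own range) of 8 genes in 27 mice by group, doses low to high within each diet, with a point per mouse and a bar at the group mean. Wfdc2 averages 4.04 in HFD, 2.43 in HFDL and 1.45 in HFDH, and Fam25c averages near 2 in SD but above 3 in HFD.

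The response to the high dose itself differed between the diets in 6 of the 9972 genes (0.0602%) by limma's interaction test, with 2 above 0 (0.0201%) and 4 below (0.0401%), and 1270 (12.7%) had an unadjusted p under 0.05. Fam25c, a gene of unassigned role, was at 3.48, 3.18, 3.37 and 2.72 in HFDH mice, 3.05, 3.43, 3.41, 3.01 and 3.33 in HFD mice, 3.51, 3.59, 3.90 and 4.18 in SDH mice and 2.00, 2.29, 2.01, 1.46 and 2.32 in SD mice. The SD mice lay below every mouse of the other 3 groups, and the high dose gave a difference of -0.06 on HFD and 1.78 on SD (interaction -1.84, adjusted p = 0.00344). Afm, afamin, a vitamin E carrier of plasma, differed by -0.05 on HFD and 1.20 on SD (interaction -1.25, adjusted p = 0.0271), and was the least stable of the 6, with the call kept in 21 of 30 alternatives and the interaction between -1.35 and 0.51 over them. Marchf8, a ubiquitin ligase of membrane proteins, was at 0.19, 0.46, 0.49 and 0.25 in HFDH mice, against 1.25, 0.94, 1.11, 1.14 and 0.70 in HFD mice. It fell by 0.68 on HFD (adjusted p = 0.00134) and differed by 0.33 on SD (interaction -1.01, adjusted p = 0.00914). Mfsd4b1, a sugar transporter of the major facilitator family, was at 3.08, 2.99, 3.22 and 3.19 in HFDH mice, against 2.45, 2.88, 2.73, 2.56 and 2.77 in HFD mice. It rose by 0.44 on HFD (adjusted p = 0.0156) and fell by 0.57 on SD (adjusted p = 0.0021), with an interaction of 1.01 (adjusted p = 0.00344). Slc16a10 and the unnamed probe ILMN_2771368 were the others, at 0.60 and -0.44 and at -0.68 and 0.57 on HFD and SD, and each kept the call in 23 of 30 alternatives.

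The array of HFDH mouse 16, set aside, detected 27.2% of probes and correlated with its group at a median r of 0.71. On it Cyp2b10 had an intensity of 163, against 1383 to 4535 in the other HFDH mice and 160 to 218 in HFD mice, and after normalisation it was at 2.02, against 3.59 to 5.45 in the other HFDH mice and 0.35 to 0.88 in HFD mice, between the groups. Avpr1a had an intensity of 2247, against 2278 to 3953 in the other HFDH mice and 560 to 1039 in HFD mice. After normalisation it was at 7.755, above the 4.10 to 5.18 of the other HFDH mice. Slco2a1 was at -0.17 after normalisation, below the 3.06 to 3.57 of the other HFDH mice and the 1.73 to 2.33 of HFD mice. Cidea, Cyp2b13 and Ntrk2 had intensities of 45, 46 and 43 there, all undetected, while in the other HFDH mice Cidea was undetected in 2, Cyp2b13 in 4 and Ntrk2 in none. Wfdc2 had 129 on this array, 267 to 382 in the other HFDH mice and 1355 to 2573 in HFD mice. Neither the raw nor the normalised values of this dim array are on the same scale as the rest. They do not place mouse 16 within or between the groups. With this mouse added to the fit, 161 genes were called (41 higher, 120 lower), 156 of them among the 437.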

How the data were processed

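Liver RNA was measured on Illumina MouseRef-8 BeadChips. The authors extracted probe intensities with GenomeStudio 2011.1 and deposited them on a linear scale without normalisation, each with a detection p-value. They also deposited a score per probe, the Z-normalised log intensity, used here in alternatives only. For DSF groups the intensity columns carry other mouse numbers than the sample titles, so columns were assigned to groups, not to single samples. Intensities were converted to log2, centred and scaled per array to a common SD of 1.89, and repeat arrays were averaged. Probes detected at p under 0.05 in at least 5 of 27 mice were kept, and the brightest probe stood for each gene. Of all probes 23978 carry a symbol (23962 matched to RefSeq by Entrez ID) and 1719 none. limma 3.58.1 (R 4.3.3) fitted 1 mean per group over 6 groups (21 residual degrees of freedom), with Benjamini-Hochberg adjustment, and a gene was called at an adjusted p under 0.05 whatever its fold. The number of arrays limits the precision, and depth on arrays is signal over background. Where a fold is a lower bound, undetected signals were raised to the array's lowest detected one. The script was tested on simulated data. The text names the 15 largest rises and falls among genes with a symbol, 9 of 10 genes the study names (the tenth was not analysed here), up to 6 members of a described list and the genes past the interaction test. The sets of mice and the gene lists were chosen with earlier results of these data known, and a few members named because they did not pass were chosen after their values were seen. Alternatives covered normalisation, filters, probes, the mice left out, array weights and the scores.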

Additional observations from a re-analysis of the deposited data

Results flagged for a closer look

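In 6 genes the response to the high dose differed between the diets by limma's interaction test, given as the response on HFD minus that on SD. The difference was -1.84 for Fam25c (adjusted p = 0.00344), -1.25 for Afm (adjusted p = 0.0271), -1.25 for the unnamed probe ILMN_2771368 (adjusted p = 0.0271), -1.01 for Marchf8 (adjusted p = 0.00914), 1.04 for Slc16a10 (adjusted p = 0.0273) and 1.01 for Mfsd4b1 (adjusted p = 0.00344). The calls of Fam25c, Marchf8 and Mfsd4b1 were kept in 29 of 30 alternatives, those of Slc16a10 and ILMN_2771368 in 23 and that of Afm in 21.

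Of 144 groups checked in 72 genes, 4 held a mouse far from the others, and chance alone marks about 1 in 20 groups. For Nrp1, HFD mouse 5B was at 4.41 against 3.35 to 3.65 in the other HFD mice, a gap of 0.719 of the group's range. For ILMN_2771368, HFD mouse 1 was at 1.02 against 0.37 to 0.50 (0.806 of the range). HFDH mouse 17 was high for Dld, at 0.96 against 0.51 to 0.54 (0.94), and low for Rps27, at 5.79 against 6.47 to 6.60 (0.842).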

How the results depend on the processing

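The number of calls of HFDH against HFD, 437, stayed within 1.5 times under the other normalisations, filters and probe rules, at 376 to 598. The genes changed more than their number: under the other normalisations 311 to 344 of the 437 were called again. With only the mice of HFDH and HFD in the fit 302 genes were called, 240 of them among the 437. The calls were 161 with HFDH mouse 16 added, 19 with all 30 mice and 1222 with array weights. The 30 mice include the arrays set aside, among them that of SDH mouse 16. It detected 6.6% of probes and correlated with its group at a median r of -0.009. The SD of its log2 intensities was 0.10, against 1.86 to 1.93 in the other SDH mice. Its part in the counts with all 30 mice was not tested. Leaving out single mice gave 167 (without HFDH mouse 13) to 577 (without HFDH mouse 17), with 205 without HFDH mouse 15, 233 without HFD mouse 1 and 258 without HFD mouse 4. Of the calls 144 were higher and 293 lower, against 72 and 526 when arrays were centred but not scaled. The comparison of the doses gave 0 calls by limma in its 29 alternatives. The 6 interaction calls became 10 after quantile normalisation, 0 by limma with all 30 mice, and 3 to 32 without single mice, with 32 without SD mouse 4, 15 without SDH mouse 13, 13 without SD mouse 5 or HFD mouse 5B, and 3 without SD mouse 2 or SDH mouse 15.

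The authors' scores gave 11 calls with all 5 HFDH mice and 2 with the replicate number as a block. Without the HFDH array of lowest correlation, a choice made after seeing the data, they gave 295, and 244 with that block. Same-numbered mice correlated at -0.29 to 0.149 over 5 pairs, and 2 HFDH mice correlated best with their own number. These pairs are few and include the HFDH array of lowest correlation. They cannot decide whether mice of the same number were paired.

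Of 66 called genes checked, 10 kept the call in all 41 alternatives on intensities: Cyp2b10, Cyp2b13, Sult1c2, Cidea, Wfdc2, Clstn3, Ntrk2, Robo1, Aqp4 and Efna5. All but Cyp2b10 are falls, and for falls the alternatives that add HFDH mouse 16 are not a check. A low value there is set by the dim array, on which Cyp2b13, Sult1c2, Cidea, Ntrk2 and Aqp4 were undetected. Avpr1a, Igfbp2, Apom, Cdh1, Lgals1, Mmd2, Mogat1 and Pparg lost the call in 1 of the 41 alternatives, with all 30 mice. That alternative holds the array of SDH mouse 16, which detected 6.6% of probes, and the part of that array in these losses was not tested. The direction reversed in 3 genes: Gstp1 was at -0.60 with HFDH mouse 16 added, -0.57 with all 30 mice and -0.32 in the scores with or without the block, Mfsd4b1 at -0.158, -0.152, -0.089 and -0.089, and Mccc1 at 0.0207, 0.0198, 0.01 and 0.01. The cause was not tested. Signal near background limits the genes undetected in HFDH, whose falls are bounds.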
